A study of Mus musculus with 14 samples.

Results

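The genes described here lie on mouse chromosome 11 around Pla2g3, the gene that was inactivated in the knockout mice. Members were taken by position alone: every gene with an array probe on chromosome 11 that starts within 10 Mb distal of the Pla2g3 probe, or anywhere between that probe and the start of the chromosome, on the mm9 build. Pla2g3 itself and Ikzf1, Ddc, Osm, Lif and Xbp1 were left out. This gave 129 of the 27975 genes on the array, with probes starting from 3031835 to 12136804, and 93 of the 16016 genes that passed the filter on dim probes. The other 36 were well above background on fewer than 3 of the 14 arrays.

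RNA was measured on single-colour Agilent arrays in BMMCs (bone marrow-derived mast cells of the mouse), immature mast cells grown from marrow with the cytokine IL-3 for 4 to 6 weeks. The groups were 4 arrays of Pla2g3-/- BMMCs, 3 of Pla2g3+/+ BMMCs, 3 of Pla2g3-/- cocultured cells and 4 of Pla2g3+/+ cocultured cells. Cocultured cells were BMMCs kept for 96 h on Swiss 3T3 cells, a mouse fibroblast line, with stem cell factor at 100 ng/ml. All 4 groups carry the same strain label, which joins C57BL/6 and 129Sv with the suffix N3, and the labels give no age. Per the labels, over 97% of BMMCs and over 99% of cocultured harvests stained as mast cells for Kit and FcεRIα. Nothing in the labels ties replicates to separate animals or cultures, so a p-value here rests on a spread between samples that may be technical.

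As background, a targeted allele is usually made in embryonic stem cells of one mouse strain and crossed to another. Genes close to the target on the chromosome tend to be inherited with it, so neighbours of a knocked-out gene can differ in sequence or expression between littermates for reasons of linkage. Pla2g3 encodes the group III secreted phospholipase A2, which releases fatty acids from membrane phospholipids. The alleles that the segment carried in these mice were not measured by the arrays.

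The probes of 3 genes are shown by their opening bases because several results turn on them, and because the Abca13 probes did not behave alike. All letters come from the deposited array files, are written 5′ to 3′ and start at the first base of each 60-base probe, with 30 bases shown. The positions are on mm9: the Pla2g3 probe lies at chr11:3393221-3393280 (plus strand), the Abca13 probes at chr11:9583640-9583699, chr11:9581972-9582031 and chr11:9124184-9124243 (plus strand), and the Camk2b probe at chr11:5869835-5869894 (minus strand). Whether each lies in an exon or an untranslated region was not determined here.
Pla2g3: ctccttcctggtgttgctatattctgagag
Abca13, the probe used: ccaagaggacctaggatatccaagctgcac
Abca13, neighbouring probe: tggaatatcatgtacaaaagagttgggagt
Abca13, proximal probe: cttagttttgtctgtactagtttcagagtt
Camk2b: ttttgcatgaccctctaaagagcaggacac

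Levels are log2 intensities after subtraction of each array's 75th percentile, so 0 is that percentile and a difference of 1 is 2-fold. Levels of different probes cannot be set against each other. The Pla2g3 probe read -1.43, -1.31, -1.60 and -1.96 on the BMMC arrays labelled knockout, against -3.75, -4.69 and -2.95 on those labelled wild-type. The arrays did not overlap, and the higher values were on the knockout-labelled side. In cocultured cells it read -3.21, -1.78 and -1.97 on arrays labelled knockout, against -4.33, -3.25, -4.14 and -2.22 on those labelled wild-type, and here the groups overlapped. The difference, labelled knockout minus labelled wild-type, was 2.22 (SE 0.54) in BMMCs and 1.17 (SE 0.54) in cocultured cells, and neither passed (limma, adjusted p = 1.0 and 0.80). The probe therefore went against the genotype labels in direction. The labels do not give the deleted part of the gene, so a probe outside it would check nothing, and the groups are called by their labels throughout. Every direction below depends on those labels.

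Before the segment genes, some facts on the arrays bear on the results. Of the probes, 43.0% to 55.9% were well above background per array, and precision is limited by how many arrays there are. Of 12 mast cell markers, 11 or 12 were above background on every array. The exception was the tryptase Tpsab1 in BMMCs, above background on 3 of 4 arrays labelled knockout and 0 of 3 labelled wild-type. Of 18 fibroblast markers, 1 to 3 were above background on each BMMC array, and 11 to 16 on cocultured arrays labelled knockout against 12 to 17 on those labelled wild-type. Replicate 3 of each cocultured group was hybridised on slide 4 and scanned on a second day, as was knockout-labelled BMMC replicate 4, with no wild-type-labelled BMMC array beside it. Of the cocultured arrays, slide 1 held 1 labelled knockout and none labelled wild-type, and slide 3 held 2 labelled wild-type and none labelled knockout. Slides 2 and 4 held 1 of each label, so without the cocultured arrays of slide 4 only slide 2 carried both. In fibroblast markers the 2 cocultured arrays of slide 4 stood apart from their own label: the log2 summed level was 3.89, 4.69 and 5.95 on arrays labelled knockout, against 6.86, 8.73, 4.05 and 7.06 on arrays labelled wild-type. The knockout-labelled replicate 3 was the highest of its group, and the wild-type-labelled replicate 3 lay within the knockout-labelled range. The cocultured counts are therefore given with and without them, as are the single genes whose difference turned its sign or moved by over 1.5 times. In these bulk samples fewer cells of a type and less RNA per cell cannot be told apart. The array of knockout-labelled BMMC replicate 3 had the highest limit of detection, at -2.75, against -4.56 to -3.48 on the other 13 arrays.

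In BMMCs, no segment gene passed an adjusted p of 0.05, nor did any of all 16016 genes (0% called). At an unadjusted p under 0.05, 5 of the 93 genes differed, where 1.06% of all genes did. Of these, 4 were lower in cells labelled knockout, against 0.743% of all genes, and 1 was higher, against 0.318%. Those lower were Abca13, Camk2b, Ccdc117 and Tmed4, and the higher one was Gm11992. With the replicate number as a block, 15 of 93 did, against 5.84% of all genes, 8 of them higher (1.44% of all genes) and 7 lower (4.4%), and still none after adjustment (0% of all genes). Left out in turn, knockout-labelled replicates 1 and 2 and wild-type-labelled replicate 3 lowered the count to 3, 2 and 3, against 0.837%, 1.32% and 0.98% of all genes. Without knockout-labelled replicate 4, the BMMC array on slide 4, it was 5, against 0.774%.

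Separation of the arrays gave a second description. In 11 of the 93 genes (11.8%) every knockout-labelled BMMC array lay above, or every one below, every wild-type-labelled array. This held for 3.96% of all genes, and for 39 of 1277 tested genes on the rest of chromosome 11 (3.05%). The knockout-labelled side was higher in 5 segment genes, against 0.83% of all genes, and lower in 6, against 3.13%. The higher ones were Castor1, an arginine sensor of the mTORC1 pathway, Nipsnap1, a mitochondrial protein, Gm11992, and the transcripts listed as BX529199 and NAP071275-1. The lower ones were Abca13, Ccdc117, Tmed4, Morc2a, which silences chromatin, Mtfp1, which acts in mitochondrial fission, and Mrps24, of the mitochondrial ribosome. Genes named here for an unadjusted p or for separated arrays were chosen after their values were seen. Abca13 also met the rule of an unadjusted p under 0.05 in both cultures, which is itself a choice by values. Morc2a was also among the 5 tested genes nearest to Pla2g3 on the distal side, whatever its values. Leaving out an array loosens the criterion, so the count can only stay or rise, in the segment as over all genes. The segment's share was 14 of 93 (15.1%) against 12.1% of all genes without wild-type-labelled replicate 1. It was 20 of 93 (21.5%) against 9.93% without wild-type-labelled replicate 2. It was 19 of 93 against 8.5% without wild-type-labelled replicate 3, 20 of 93 against 11% without knockout-labelled replicate 3, and 14 of 93 against 5.89% without knockout-labelled replicate 4. With each array's median as the scaling it was 7 of 93 (7.53%) against 2.1%.

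**Figure D1:**
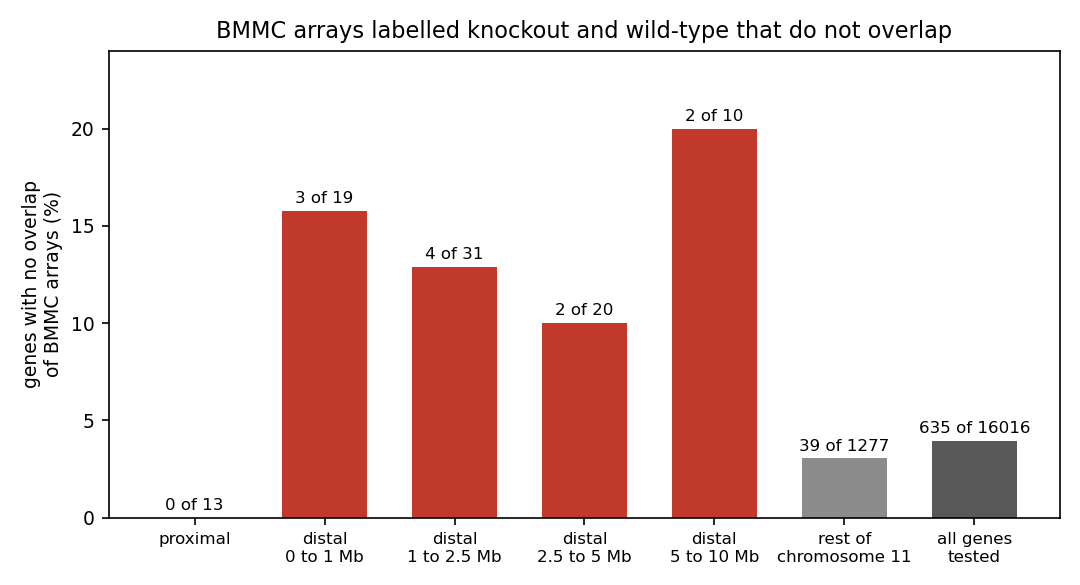
Share of tested genes, in percent, for which the 4 BMMC arrays labelled knockout and the 3 labelled wild-type do not overlap, by position relative to the Pla2g3 probe (red bars), for the rest of chromosome 11 and for all genes (grey bars). Counts stand above the bars: 0 of 13 proximal genes, 3 of 19, 4 of 31, 2 of 20 and 2 of 10 distal genes, against 39 of 1277 and 635 of 16016.

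The sizes of the differences in BMMCs were small in most of the segment. The median difference was -0.11 in the segment and -0.09 over all genes, and the median absolute difference was 0.23 in the segment and 0.17 over all genes. The range over the tested genes of the segment was -2.38 (Camk2b) to 1.40 (Gm11992), and 59 of 93 genes lay below 0, against 10525 of 16016 over all genes.

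In cocultured cells, again no segment gene and no gene of the array passed the adjusted threshold (0% called). At an unadjusted p under 0.05, 3 of 93 differed, against 3.8% of all genes, which is no larger a share. These were Nudcd3, a co-chaperone of dynein, which was higher in cells labelled knockout (1.5% of all genes were), and Abca13 and Gas2l1, a linker of actin and microtubules, which were lower (2.3% of all genes were). The arrays did not overlap in 3 of 93 genes, against 1.8% of all genes: Nudcd3 was higher with the knockout label (0.812% of all genes were), and Abca13 and Camk2b were lower (0.993% were). The probe used for Nudcd3 differed by 0.52 in cocultured cells. Another Nudcd3 probe, above background on all 14 arrays, differed by -0.04 there and by 0.35 in BMMCs. The probes of Nudcd3 thus did not share a sign in cocultured cells. The median difference was -0.07 in the segment and 0.05 over all genes, with median absolute differences of 0.33 and 0.32.

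The cocultured counts turned on the 2 cocultured arrays of slide 4. Without them, 24 of 93 segment genes passed the adjusted threshold, which is close to the 25.3% of all genes that did. Of these, 11 were higher in cells labelled knockout, against 16% of all genes, and 13 lower, against 9.25%. At an unadjusted p the count was 34, against 39% of all genes. Among those lower in cells labelled knockout were Polm, a DNA polymerase of end joining, at -1.96 and Pik3ip1 at -1.57, and among those higher were Myo1g, a myosin of blood cells, at 1.41 and Mtfp1 at 1.13 (limma, adjusted p = 0.0046, 0.0063, 0.014 and 0.0084). In each of these genes both arrays left out went against the difference. Leaving them out had to enlarge it, so these p-values support nothing about the genes. The count at an unadjusted p was 20 without knockout-labelled replicate 3 alone, against 20.8% of all genes. It was 19 without wild-type-labelled replicate 3 alone, against 19.9%. It was 6 and 5 without wild-type-labelled and knockout-labelled replicate 1, against 7.78% and 2.24%, and 2 without replicate 2 of either label, against 1.06% (wild-type-labelled) and 1.49% (knockout-labelled). Leaving out arrays can only keep or raise the count of genes with no overlap. It was 53 of 93 without both cocultured arrays of slide 4, against 55.5% of all genes. Leaving out 1 array, it was 23 against 24.4% (knockout-labelled replicate 3), 19 against 17.1% (wild-type-labelled replicate 3), 9 against 5.18% and 5 against 3.34% (knockout-labelled replicates 1 and 2) and 7 against 8.78% (wild-type-labelled replicate 1).

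Single genes moved with those 2 arrays as well. Of the 40 tested segment genes described with values, 5 turned their sign in cocultured cells without them, and 21 kept it but moved by over 1.5 times, 19 of them to a larger difference. The differences that turned, without the 2 arrays and with them, were 0.04 and -0.24 for 8430429K09Rik, 0.27 and -0.02 for Ap1b1, -0.21 and 0.22 for Morc2a, -0.32 and 0.10 for Rnf185, and 0.41 and -0.02 for Tcn2. Among those that grew, in the same order, were Fignl1 (1.30 and 0.51), Nipsnap1 (1.61 and 0.84), Mrps24 (1.0 and 0.35), Uqcr10 (0.93 and 0.49), Aebp1 (-3.32 and -1.64), BX529199 (-0.86 and -0.07), Ccdc117 (-0.95 and -0.51), NAP071275-1 (-0.94 and -0.51) and Rnf215 (-0.78 and -0.30). The differences also grew for Dusp18 (0.46 and 0.03), Rhbdd3 (0.20 and 0.08), Ewsr1 (-0.39 and -0.01), Tug1 (-0.64 and -0.16) and Mtmr3 (-0.44 and -0.07). Castor1 (-0.09 and -0.31) and Gm11992 (-0.11 and -0.51) shrank. The Pla2g3 probe differed by 0.77 without the 2 arrays and 1.17 with them. In BMMCs, leaving out knockout-labelled replicate 4 turned the sign of Igfbp3, Polm, Rnf215 and Tug1, each within 0.2 of 0 both with and without it. Of the 40 genes, 16 kept their sign but moved by over 1.5 times, 5 of them to a larger difference. Among these, without that array and with it, were Selenom (-0.04 and -0.35), H2az2 (-0.18 and -0.38), Dusp18 (0.17 and 0.33) and Aebp1 (1.29 and 0.75).

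**Figure D2:**
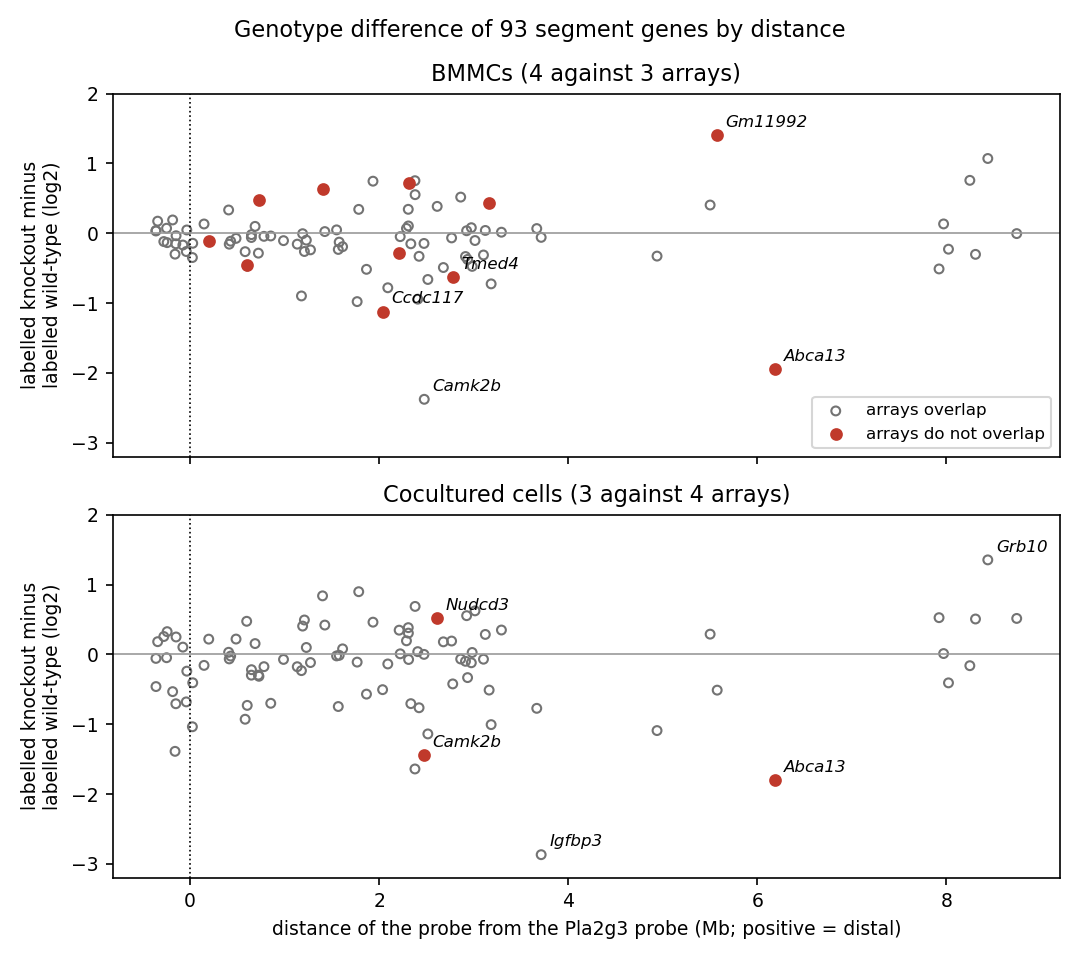
Difference in log2 level, labelled knockout minus labelled wild-type, of the 93 tested segment genes (points) against the distance of their probe from the Pla2g3 probe in Mb, in BMMCs (top) and cocultured cells (bottom). Filled points are genes whose arrays do not overlap between the labels, 11 in BMMCs and 3 in cocultured cells; Abca13, at 6.19 Mb, is filled and low in both panels.

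Averaged over both cultures, 9 of 93 genes were under an unadjusted p of 0.05, against 2.79% of all genes. Of these, 3 were higher, against 0.693% of all genes, and 6 lower, against 2.1%, and none passed the adjusted threshold (0% called over all genes). Higher in cells labelled knockout were Nudcd3, Dbnl, an actin-binding adaptor, and Grb10, an imprinted adaptor that restrains insulin receptor signalling. Lower were Abca13, Camk2b, Tmed4, Ccdc117, Gas2l1 and Ramp3, an accessory protein of calcitonin-family receptors. The count was 16 against 8.36% of all genes without cocultured knockout-labelled replicate 3, 19 against 11.6% without cocultured wild-type-labelled replicate 3, and 30 against 27.6% without both. Without both, 8 of 93 also passed the adjusted threshold, against 6.9% of all genes. The test of whether the genotype difference itself differed between cultures called no gene, and 1 of 93 was under an unadjusted p of 0.05, Gm11992, against 0.818% of all genes. Without both cocultured arrays of slide 4 it called 13 of 93, against 12.7% of all genes.

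Both cultures had differences of the same sign in 56 of 93 genes (60.2%), against 50.9% of all genes. Only Abca13 was under an unadjusted p of 0.05 in both with the same sign, against 26 of all 16016 genes. It was also the 1 segment gene whose arrays did not overlap on the same side in both cultures, a pattern held by 15 of all genes (0.0937%) and by 0 of 1277 on the rest of chromosome 11. Since Abca13 passed the filter on dim probes through wild-type-labelled arrays alone, it had to differ, and these rates support nothing about it.

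**Figure D3:**
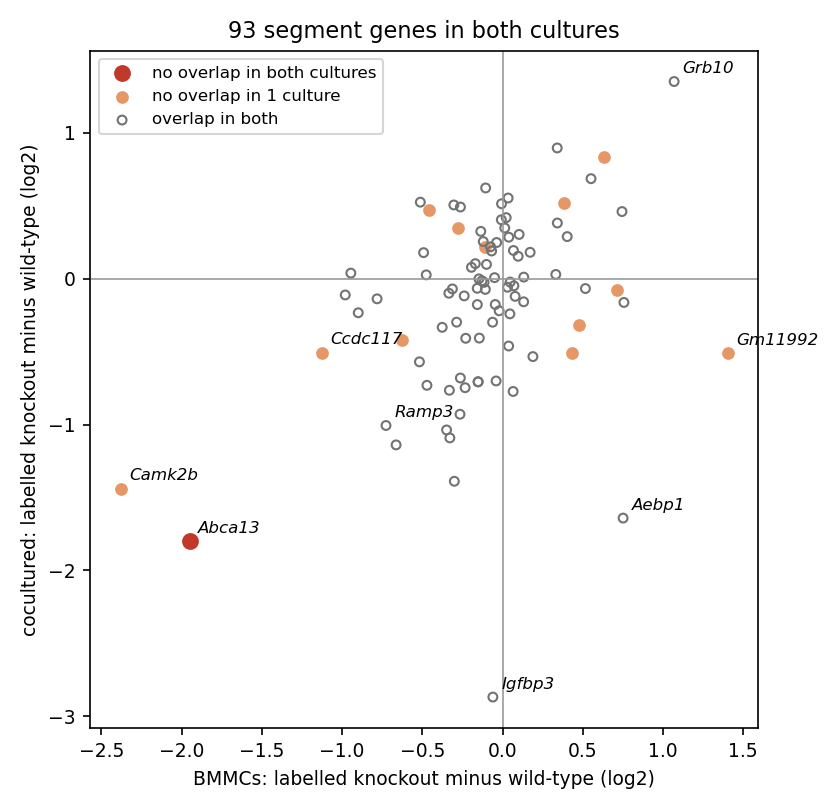
Difference in log2 level, labelled knockout minus labelled wild-type, of each of the 93 segment genes in BMMCs (horizontal axis) and in cocultured cells (vertical axis). Abca13 (large filled point) lies at -1.95 and -1.80, Camk2b at -2.38 and -1.44, and most genes lie within 1 of 0 on both axes.

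Abca13 encodes a very large ABC transporter of the subfamily that moves lipids, and lay 6.19 Mb distal of the Pla2g3 probe. It read -4.63, -4.85, -4.76 and -5.96 on BMMC arrays labelled knockout, against -3.38, -3.0 and -2.93 on BMMC arrays labelled wild-type. It read -5.10, -3.98 and -4.28 on cocultured arrays labelled knockout, against -2.75, -2.20, -1.89 and -3.77 on cocultured arrays labelled wild-type. In each culture every array labelled wild-type read above every array labelled knockout. In cocultured cells this turned on wild-type-labelled replicate 4 at -3.77 and knockout-labelled replicate 2 at -3.98, which were both below background, so that their order is not reliable. The probe was well above background on none of the 4 and none of the 3 arrays labelled knockout, but on 2 of 3 BMMC and 3 of 4 cocultured arrays labelled wild-type. It thus passed the filter through the wild-type-labelled arrays alone.

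The limit of detection of an array is the lowest signal of any probe well above background on it. With lower knockout-labelled values raised to that limit, Abca13 was 1.84-fold higher in BMMCs and 2.40-fold higher in cocultured cells labelled wild-type. These folds are no strict lower bounds, since the limit is not particular to this probe. On wild-type-labelled BMMC replicate 1 the Abca13 probe read -3.38 and was not above background, where the limit was -3.86. As measured, the means in BMMCs were -5.05 ± 0.62 (SD, n = 4) for the knockout label and -3.10 ± 0.24 (SD, n = 3) for the wild-type label. In cocultured cells they were -4.45 ± 0.58 (SD, n = 3) for the knockout label and -2.65 ± 0.82 (SD, n = 4) for the wild-type label. The differences were -1.95 and -1.80, each with SE 0.45, and -1.87 (SE 0.32) for both cultures together, and the adjusted p in limma was 1.0, 0.80 and 0.49. Without the 2 cocultured arrays of slide 4 the difference was -1.63 in cocultured cells and -1.79 for both cultures. The adjusted p in limma was then 0.043 and 0.020, where 25.3% and 6.9% of all genes passed. Since Abca13 passed the filter through wild-type-labelled arrays alone, it had to differ, and these p-values support nothing about it. Without knockout-labelled BMMC replicate 4 the difference was -1.64 in BMMCs. Within the slides that carry both labels, where the sign follows from the separated arrays, the sizes were -1.25, -1.85 and -1.83 on slides 1, 2 and 3 in BMMCs, and -1.23 and -2.39 on slides 2 and 4 in cocultured cells.

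The other 2 Abca13 probes were above background on no array. The neighbouring one, which starts at 9581972, averaged -5.86 and -5.12 in BMMCs labelled knockout and wild-type, and -5.11 and -4.33 in cocultured cells labelled knockout and wild-type. The proximal one, which starts at 9124184, averaged -6.03 and -5.97 in BMMCs, and -6.01 and -6.11 in cocultured cells, in the same order of labels. Below background these values have no reliable order, so the difference rests on 1 probe.

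Camk2b encodes the beta subunit of calcium/calmodulin-dependent kinase II, known mostly from neurons, and lay 2.48 Mb distal. It read -6.57, -6.26, -2.35 and -6.80 on BMMC arrays labelled knockout, against -2.94, -3.02 and -3.38 on BMMC arrays labelled wild-type. The third array labelled knockout was above all arrays labelled wild-type, and the other 3 were far below them. In cocultured cells it read -5.59, -5.72 and -5.57 with the knockout label, against -3.84, -3.80, -4.56 and -4.55 with the wild-type label, with no overlap. In BMMCs it exceeded background on 1 of 4 arrays labelled knockout and 3 of 3 labelled wild-type. In cocultured cells it did so on 0 of 3 labelled knockout and 2 of 4 labelled wild-type.

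The difference of Camk2b was -2.38 (SE 0.81) in BMMCs and -1.44 (SE 0.81) in cocultured cells (limma, adjusted p = 1.0 and 0.80). Without knockout-labelled BMMC replicate 3 it was -3.43 in BMMCs, and for both cultures together -2.43 (limma, adjusted p = 0.00076 and 0.00050), which passed in both, as did 0.0125% of all genes. The array left out is the one that went against the difference. Without it Camk2b was above background on wild-type-labelled arrays alone, 3 of BMMCs and 2 of cocultured cells, so that it then had to differ, and -3.43 is measured against values below background and is no exact size. Within slides the BMMC difference was -3.63, -3.24 and 1.04 on slides 1, 2 and 3, and the cocultured one -1.88 and -1.01 on slides 2 and 4. On slide 3 the sign was thus the opposite. Since 2 of the 4 cocultured arrays labelled wild-type were below background and the means lie near the limit of detection, no bound above 1-fold could be given there.

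**Figure D4:**
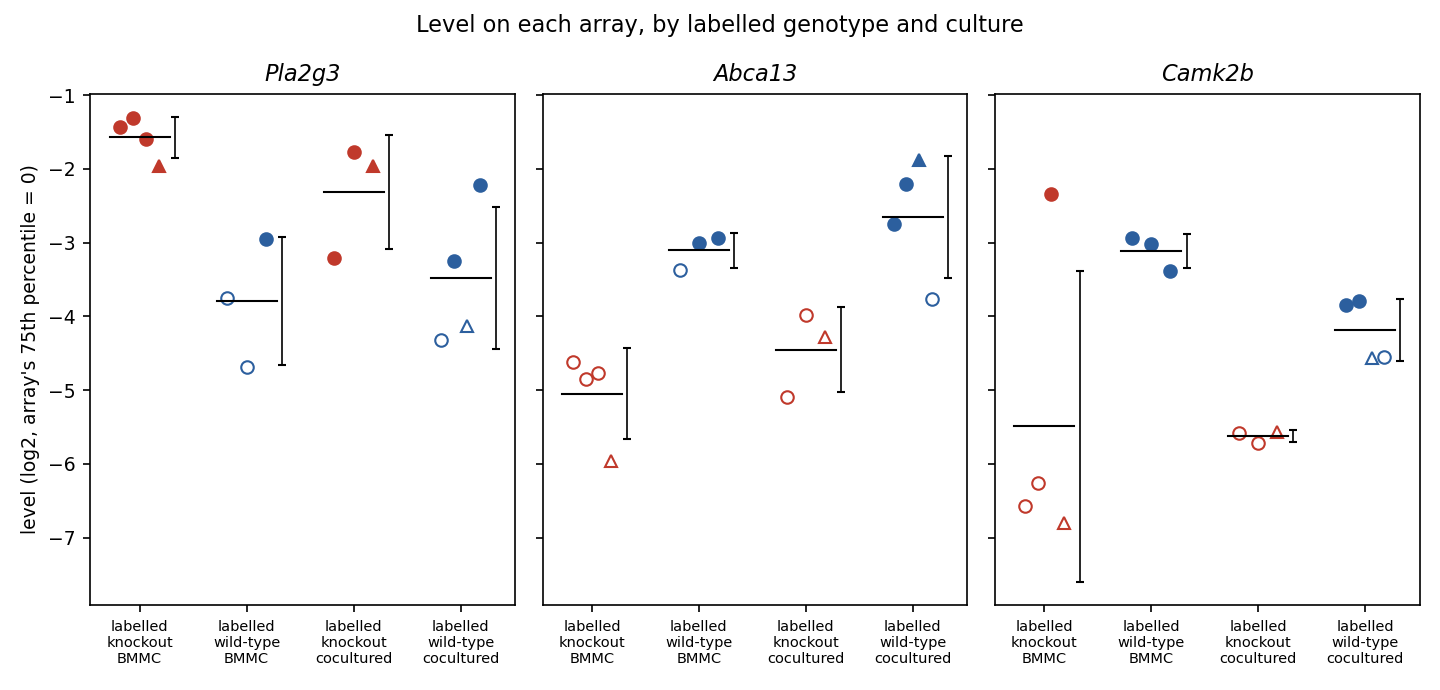
Level on each array (log2, 0 = the array's 75th percentile) of the Pla2g3, Abca13 and Camk2b probes in the 4 groups by label; red is labelled knockout, blue labelled wild-type, filled symbols are well above background, triangles are the 3 arrays of slide 4, 1 of BMMCs labelled knockout and 1 of cocultured cells of each label, lines are means and bars ± SD. Abca13 is open on all 7 arrays labelled knockout, Camk2b is filled on 1 of them, and Pla2g3 is filled on all 7.

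Other genes whose BMMC arrays separated differed by less. Tmed4, a cargo receptor of the early secretory pathway, read -0.34, -0.64, -0.29 and -0.11 with the knockout label, against 0.25, 0.21 and 0.38 with the wild-type label. All 3 arrays labelled wild-type were above all 4 labelled knockout. Within slides the difference was -0.59, -0.85 and -0.67 in BMMCs, where the sign follows from the separated arrays. In cocultured cells it was -0.69 and -0.72 on slides 2 and 4, the only slides with cocultured arrays of both labels. Across all cocultured arrays Tmed4 read -0.24, -0.39 and 0.01 with the knockout label, against 0.30, 0.25, 0.73 and -0.40 with the wild-type label. The groups overlapped through wild-type-labelled replicate 4, on slide 3, which held no knockout-labelled cocultured array. The difference was -0.63 (SE 0.26) in BMMCs and -0.42 (SE 0.26) in cocultured cells, and neither passed (limma, adjusted p = 1.0 and 0.80).

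Ccdc117 showed a disagreement between probes. The probe used read -0.49, 0.01, 0.00 and -0.04 in BMMCs labelled knockout, against 0.63, 1.15 and 1.20 in BMMCs labelled wild-type. The groups did not overlap, and the difference was -1.12 (SE 0.49; limma, adjusted p = 1.0). Within slides 1 to 3 it was -1.12, -1.15 and -1.20, where the sign follows from the separated arrays. The gene's other probe, above background on all 14 arrays, averaged -0.71 with the knockout label and -1.01 with the wild-type label, a difference of 0.30 in the opposite direction. In cocultured cells the probe used differed by -0.51 and the other by 0.14.

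Gm11992, a predicted gene, ran in opposite directions in the 2 cultures. It read -2.94, -1.39, -1.80 and -2.89 in BMMCs labelled knockout, against -4.14, -3.66 and -3.18 in BMMCs labelled wild-type, with no overlap. After coculture it read -5.22, -3.66 and -5.25 with the knockout label, against -5.11, -4.18, -3.80 and -3.70 with the wild-type label, and the groups overlapped. The differences were 1.40 and -0.51 (SE 0.51 each), and the test of the difference between cultures did not pass (limma, adjusted p = 0.99).

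Grb10 lay 8.44 Mb distal and read 0.18, -1.08, -0.41 and -2.53 in BMMCs labelled knockout, against -2.69, -1.30 and -2.11 in BMMCs labelled wild-type. Cocultured cells had 0.27, 1.14 and -0.17 with the knockout label, against -0.72, -1.96, 0.11 and -1.20 with the wild-type label. The groups overlapped in BMMCs through knockout-labelled replicate 4 and in cocultured cells through wild-type-labelled replicate 3. The differences were 1.07 and 1.35 (SE 0.63 each; limma, adjusted p = 1.0 and 0.80), and 1.59 in BMMCs without knockout-labelled replicate 4 and 2.0 in cocultured cells without the 2 cocultured arrays of slide 4. Of its other probes, 1 was above background on no array and 1 on 2 arrays.

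Both members nearest to the Pla2g3 probe were too dim for the filter, each well above background on 2 arrays, and are in none of the counts over tested genes. Inpp5j, an inositol polyphosphate 5-phosphatase 0.00236 Mb distal, was above background on 1 BMMC and 1 cocultured array, both labelled wild-type. Its difference was -1.44 in BMMCs and -1.01 in cocultured cells, mostly between values below background. The transcript listed as ENSMUST00000044682, 0.00557 Mb distal on the plus strand, was above background on knockout-labelled BMMC replicates 1 and 2. It read -3.29, -2.99, -3.45 and -5.01 in BMMCs labelled knockout, against -5.50, -6.32 and -6.12 in BMMCs labelled wild-type. It read -4.77, -4.40 and -5.69 in cocultured cells labelled knockout, against -6.38, -5.55, -6.37 and -6.05 in those labelled wild-type. The arrays labelled knockout were thus the higher ones, without overlap in BMMCs and with overlap in cocultured cells. The differences were 2.29 and 1.14, the first larger than that of any tested segment gene above 0. Fitted with no filter on dim probes, they had an unadjusted p of 0.00025 and 0.030 and did not pass (limma, adjusted p = 1.0 for both). This transcript was described after its values were seen, and most of them lie below background, so the sizes are not exact.

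Among the tested genes, those closest to Pla2g3 were not the ones with low p-values. None of the 13 tested proximal genes or the 19 within 1 Mb distal was under an unadjusted p of 0.05. This held in BMMCs, in cocultured cells and in their mean, where 1.06%, 3.8% and 2.79% of all genes were. At such shares few or none would be looked for among so few genes, so the absence says little about distance. In the mean, 4 of 31, 3 of 20 and 2 of 10 genes were at 1 to 2.5, 2.5 to 5 and 5 to 10 Mb distal, against 2.79% of all genes. The median absolute difference in BMMCs was 0.14 in the proximal genes, then 0.13, 0.28, 0.33 and 0.46 outward. It was 0.26 in cocultured cells for the proximal genes, then 0.22, 0.35, 0.39 and 0.51 outward. These medians cover tested genes alone, were not tested against each other, and rest on fewer than 20 genes each in the proximal, the first and the last interval. The last interval holds dim probes, such as those of Spata48, Abca13 and Zpbp, above background on 3, 5 and 5 arrays. Others there, such as those of Hus1 and Cobl, were above background on all 14. The first tested gene past the distal edge, listed as NAP091803-1 at 14500192, differed by -0.11 in BMMCs and -0.56 in cocultured cells, and Cobl, just inside, by -0.01 and 0.51.

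On the proximal side, Pik3ip1, which restrains phosphoinositide 3-kinase, read 2.30, 3.08, 2.20 and 2.31 in BMMCs labelled knockout, against 2.20, 2.90 and 2.77 in BMMCs labelled wild-type. In cocultured cells it read 1.52, 1.23 and 2.29 with the knockout label, against 2.90, 2.81, 0.71 and 3.13 with the wild-type label. The groups overlapped in both cultures, in the second through wild-type-labelled replicate 3. The differences in BMMCs and in cocultured cells were -0.04 and 0.25 for Limk2, a kinase that controls cofilin and actin, and -0.17 and 0.10 for Rnf185, a ubiquitin ligase of the endoplasmic reticulum. They were -0.26 and -0.68 for the transcript listed as ENSMUST00000044742, and 0.05 and -0.24 for 8430429K09Rik.

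On the distal side, Selenom, a selenoprotein of the endoplasmic reticulum only 0.024 Mb away, read -0.89, -0.20, 0.14 and -1.54 in BMMCs labelled knockout, against -1.15, 0.39 and -0.07 in BMMCs labelled wild-type. It read -0.79, -1.11 and -1.25 in cocultured cells labelled knockout, against -0.22, 1.23, -1.21 and 0.15 in those labelled wild-type. The groups overlapped in both cultures. Smtn, which encodes smoothelin of smooth muscle, differed by -0.14 in BMMCs and -0.41 in cocultured cells. Tug1, a long noncoding RNA, differed by 0.13 and -0.16, and Dusp18, a dual-specificity phosphatase, by 0.33 and 0.03. Tug1 had 2 further probes, with differences of -0.14 and 0.20 in BMMCs and -0.58 and -0.51 in cocultured cells, so that in BMMCs its probes did not share a sign.

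Morc2a illustrates how small a separation could be. It read 1.53, 1.48, 1.33 and 1.56 in BMMCs labelled knockout, against 1.60, 1.57 and 1.57 in BMMCs labelled wild-type. The groups did not overlap, but the difference was only -0.11 (SE 0.28). A second, dimmer probe of Morc2a, above background on 7 arrays, differed by 0.34 in the other direction.

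By function the segment was mixed. In 6 groups of its genes no member passed the adjusted threshold in either direction in BMMCs, in cocultured cells or in their mean. Of the 11 tested genes grouped as cytoskeleton and adhesion, 9 lay below 0 in BMMCs, with a median of -0.11. The group includes Morc2a, described above as silencing chromatin, and the median is the value of Morc2a. Myo1g and Cobl, an actin nucleator, the group's 2 genes of highest signal, differed by -0.11 and -0.01 in BMMCs, and by 0.62 and 0.51 in cocultured cells. Of the 7 genes of membrane traffic, 6 lay below 0 in each culture, as did 10525 and 7321 of all 16016 genes in BMMCs and in cocultured cells, with medians of -0.26 in BMMCs and -0.30 in cocultured cells. Among these, the rhomboid-like Rhbdd3 and Ap1b1, of the clathrin adaptor AP-1, differed by -0.19 and 0.05 in BMMCs, and by 0.08 and -0.02 in cocultured cells.

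The 12 tested genes of signalling were a mixed group, with phosphoinositide and kinase genes but also ubiquitin ligases such as Rnf185 and Znrf3 and receptor-associated proteins such as Ramp3 and Kremen1. Of these, 5 lay above 0 and 7 below in each culture, from -2.38 (Camk2b) to 1.07 (Grb10) in BMMCs. Those of highest signal, the phosphoinositide phosphatase Mtmr3 and Rnf215 differed by -0.11 and -0.06 in BMMCs, and by -0.07 and -0.30 in cocultured cells. Of the 10 genes grouped as mitochondria and metabolism, 3 lay above 0 in BMMCs and 5 in cocultured cells. The group includes the secreted Igfbp3, which was above background on no BMMC array, so that its sign there carries nothing. Uqcr10, a subunit of respiratory complex III, differed by -0.26 in BMMCs and 0.49 in cocultured cells, and Tcn2, the carrier of vitamin B12, by -0.12 and -0.02. The group of transcription and RNA includes the co-chaperone Nudcd3 and the secreted Aebp1. Its 18 genes were evenly split in BMMCs, 9 above and 9 below 0, with a median of 0.01. Of these, the histone variant gene H2az2 and the RNA-binding Ewsr1 differed by -0.38 and -0.13 in BMMCs, and by -0.33 and -0.01 in cocultured cells. H2az2 belongs to a family with near-identical copies, so its signal may not be its own alone. Of the 6 genes of DNA replication and repair, 4 lay below 0 in BMMCs. Polm differed by -0.15 and -0.71, and Fignl1, which acts in homologous recombination, by -0.30 and 0.51, in BMMCs and in cocultured cells.

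Igfbp3 and Aebp1, secreted proteins made by fibroblasts and other connective tissue cells, are described for what moved with them, and were chosen after their values were seen. Igfbp3 was above background on no BMMC array, and read -5.72, -4.30 and -0.64 in cocultured cells labelled knockout, against 0.07, 1.88, -4.56 and -0.11 in those labelled wild-type. The order of the arrays was almost that of the fibroblast markers, with replicate 3 of each label standing with the other label. The difference in cocultured cells was -2.87 (SE 1.33; limma, adjusted p = 0.80), and -5.62 without the 2 cocultured arrays of slide 4 (adjusted p = 0.0013). Those 2 arrays went against the difference, so leaving them out had to enlarge it, and the lower p-value supports nothing about Igfbp3. Another Igfbp3 probe, above background on 6 arrays, differed by -1.43 in BMMCs and -0.53 in cocultured cells. The part of the fibroblast markers in these differences was not tested.

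The cocultured arrays of Abca13 and Camk2b did not overlap between labels, so each array lies on its label's side by definition. On the 2 cocultured arrays of slide 4, where the fibroblast summed level was 5.95 with the knockout label and 4.05 with the wild-type label, Abca13 read -4.28 and -1.89, and Camk2b -5.57 and -4.56, in that order. Both of these Camk2b values were below background, so that their order is not reliable. In BMMCs, 14 of 18 fibroblast markers were above background on no array of either label. The part of the fibroblast markers in the Abca13 and Camk2b differences was not tested. Aebp1 read -6.60, -6.32, -0.64 and -6.67 in BMMCs labelled knockout, against -5.86, -6.28 and -5.28 in BMMCs labelled wild-type, so that the third array labelled knockout stood alone, as it did for Camk2b. The log2 summed level of the fibroblast markers on that array was -0.05, within the -1.23 to 1.27 of the BMMC arrays labelled knockout, and 1 of 18 of them was above background there.

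**Figure D5:**
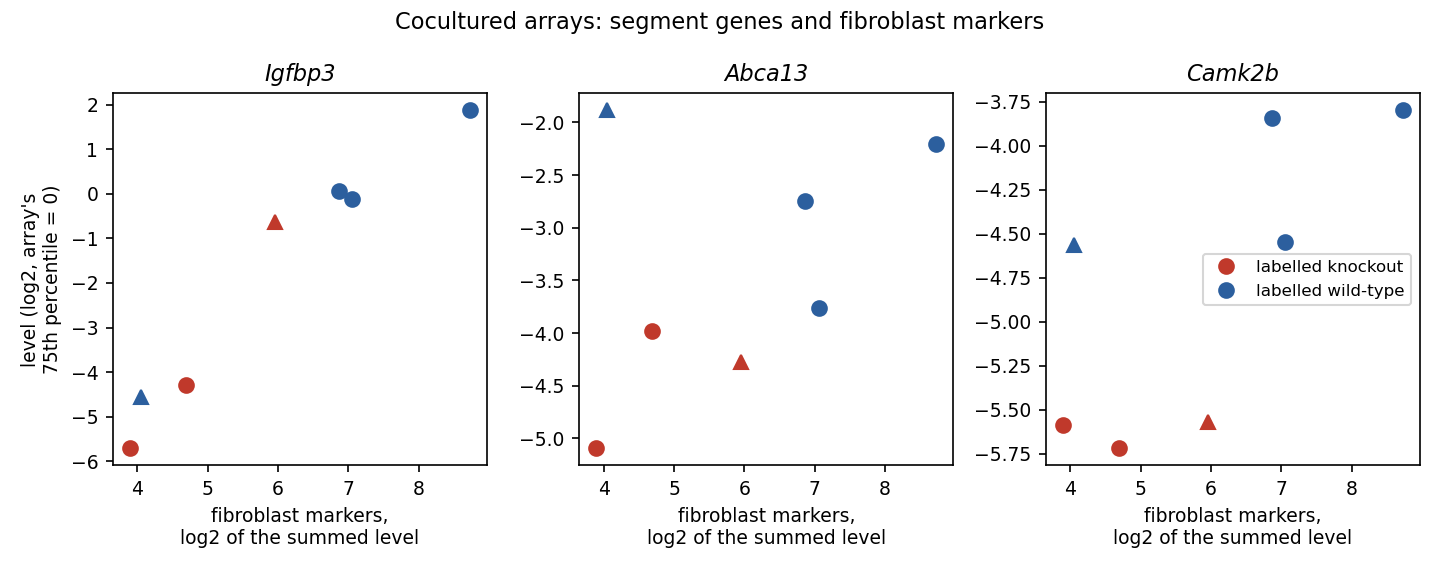
Level of Igfbp3, Abca13 and Camk2b (log2, 0 = the array's 75th percentile) on the 7 cocultured arrays against the log2 summed level of 18 fibroblast markers; red is labelled knockout, blue labelled wild-type, triangles are the 2 cocultured arrays of slide 4. Igfbp3 goes with the marker level whatever the label, from -5.72 at 3.89 to 1.88 at 8.73. The triangles stand at 5.95 (knockout) and 4.05 (wild-type), where Abca13 reads -4.28 and -1.89 and Camk2b -5.57 and -4.56. Both triangles of Camk2b are below background.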

How the data were processed

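The authors deposited 1 scanner file per array; spot intensity values came from Agilent Feature Extraction 9.5.1.1, per the submitters' processing notes and the file headers, with detrending within the array. The quality flags (coded values) and the mm9 probe positions are those of the deposited files. The authors' table of normalized intensity values was used only as an alternative. Here log2 of the processed signal minus the 75th percentile of each array was computed from the deposited files, control and outlier spots (74 to 326 per array) were left out, and a probe was kept if 3 or more arrays had it well above background and each group had 2 or more values. Of 41174 probes, 24844 were named by accession, 6045 by symbol and 1810 by synonym in a RefSeq table, and 8475 kept the file's name. Each gene was read by its probe of highest mean, within the segment for members. A member lacking a value on an array was fitted on the remaining ones (3 members).

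limma 3.58.1 (R 4.3.3) fitted 4 group means over 14 arrays, two-sided, with Benjamini-Hochberg adjustment over all 16016 genes; a call is an adjusted p under 0.05. The fit was tested on simulated data. Named are genes called, genes under an unadjusted p of 0.05 in both cultures, the 5 nearest on each side, the 2 of highest signal in each functional group, and those said to be chosen after their values were seen. Members and lists were chosen with earlier results of these data known. Replicate numbers were taken to pair BMMC arrays, because same-numbered arrays deviated together (r = 0.20, 0.50 and 0.49 over genes) and shared a slide, but not cocultured arrays (r = -0.43, -0.15 and -0.54). The pairing of BMMC arrays is not certain. Knockout-labelled replicate 4 and wild-type-labelled replicate 1, on different slides, had r = 0.36. Knockout-labelled replicate 1 and wild-type-labelled replicate 2 had r = 0.13, and the other differently numbered BMMC pairs lay below 0. Alternatives were other scalings, background correction, the authors' normalized values, other filters, averaged probes, only the arrays of a comparison, replicate and slide blocks, leaving out arrays, and a 5 Mb window.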

Additional observations from a re-analysis of the deposited data

Results flagged for a closer look

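In groups of 4 arrays, a value was picked out where its gap to the nearest other, divided by the group's range, exceeded Dixon's critical value at the 95% level. Chance picks about 1 in 20 groups, and 82 groups were looked at, 2 for each of the 40 members named and Pla2g3. Among BMMC arrays labelled knockout, replicate 3 stood apart in Aebp1 at -0.64 (the others -6.67 to -6.32), in Camk2b at -2.35 (the others -6.80 to -6.26) and in Smtn at -4.94 (the others -4.21 to -4.10). Replicate 4 stood apart in Abca13 at -5.96 (the others -4.85 to -4.63), and replicate 1 in Ccdc117 at -0.49 (the others -0.04 to 0.01). Replicate 2 stood apart in Nipsnap1 at -0.51 (the others -0.97 to -0.92) and in Pik3ip1 at 3.08 (the others 2.20 to 2.31). Among cocultured arrays labelled wild-type, replicate 3, which was on slide 4, stood apart in Pik3ip1 at 0.71 (the others 2.81 to 3.13) and in Rnf215 at 1.65 (the others 2.93 to 3.04), and replicate 1 in Dusp18 at -2.91 (the others -1.97 to -1.85).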

How the results depend on the processing

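The count of segment genes passing the adjusted threshold was 0 in every comparison and alternative run, except 1 (Camk2b) in BMMCs and in the mean without knockout-labelled BMMC replicate 3, and 24 in cocultured cells, 8 in the mean and 13 for the difference between cultures without the second-day cocultured arrays. Leaving out 1 array gave 0 to 1 in BMMCs and in the mean. The count at an unadjusted p under 0.05 (5 in BMMCs, 3 in cocultured cells, 9 in the mean) was 2 to 5, 2 to 20 and 6 to 19 with 1 array left out. In BMMCs it was 3 of 79 with probes above background on at least 7 arrays (0.935% of all genes), 3 of 83 in a 5 Mb window (1.06%), and, of 93, 9 with only the arrays of the comparison (2.17%), 15 with the replicate block (5.84%) and 8 without the second-day cocultured arrays (2.24%). In cocultured cells it was 5 with quantile normalization (4.29% of all genes), with normexp correction (4.21%) or, of 129, with no filter (2.62%), 1 with the slide as a block (1.55%) and 34 without the second-day arrays (39%). In the mean it was 5 with each array's median as scaling (2.23%) and 5 with the authors' normalized intensities (0.992%), and 30 without the second-day arrays (27.6%). Genes with no overlap numbered 14 to 20 in BMMCs and 3 to 23 in cocultured cells with 1 array left out, which loosens the criterion. With the median as scaling they numbered 7 in BMMCs and 1 in cocultured cells. In cocultured cells they numbered 1 with quantile normalization, 1 with the stricter filter, 0 with the authors' values and 53 without the second-day arrays. The cause of these changes was not tested. Cocultured replicate numbers did not pair arrays, and their replicate block gave 2 genes at an unadjusted p, against 0.487% of all genes. Abca13 passed the filter through wild-type-labelled arrays alone and its arrays did not overlap, so leaving out arrays could not turn its direction. That its direction held under the alternatives that gave a value is therefore no support. With the authors' values Abca13 lay at the floor. With normexp correction its differences shrank to -0.19 in BMMCs and -0.27 in cocultured cells, and those of Camk2b to -0.14 and -0.09. Both Abca13 and Camk2b lie near the limit of detection, which bounds how well their differences are known. Of the single-gene values under alternatives, 2861 moved by no more than the largest SD among the groups compared, 51 moved further, and 17 passed the threshold only there. By this rule a gene with 1 widely spread group rarely counts as moved, so these counts are no measure of stability.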
